A study of Saccharomyces cerevisiae with 10 samples.

Results

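The aminoacyl-tRNA synthetases of budding yeast (Saccharomyces cerevisiae) and their cofactor Arc1 were followed through ribosome profiling and mRNA libraries of 5 strains, 3 with altered or added tRNA genes and 2 wild-type controls. The genes were listed by name and not picked by any value, though earlier results of these data were known. The set has 36 members, 22 that serve the cytosol (ARC1 among them) and 14 that serve only the mitochondrion. The tables list 5373 genes in at least 1 strain and 4964 in all 5 strains, and all 36 members are listed in all 5.

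An aminoacyl-tRNA synthetase joins 1 amino acid to the tRNAs that carry its anticodons, in a reaction driven by ATP, and the charged tRNA is then brought to the ribosome by an elongation factor. Yeast mitochondria translate their own few mRNAs with their own tRNAs, and most of these are charged by a separate set of enzymes that the nucleus encodes and the organelle imports. ALA1, GRS1, HTS1 and VAS1 each encode both the cytosolic and the mitochondrial enzyme through alternative start sites, so their values are sums over both forms. Phenylalanyl-tRNA synthetase is built from the products of FRS1 and FRS2, and Arc1 binds the methionyl and glutamyl enzymes Mes1 and Gus1 and helps them to hold tRNA. When tRNA stays uncharged, it activates the kinase Gcn2, which slows translation initiation in general.

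All strains were derived from S288C and were harvested at the same culture density by filtering and freezing. In ACA-K, 3 of the 4 gene copies of the threonine tRNA with anticodon UGU, which reads ACA codons, were deleted (tT(UGU)G2, tT(UGU)H and tT(UGU)P), and each deletion carries a drug resistance marker (nourseothricin, kanamycin and hygromycin B). AGG-OE carries the arginine tRNA gene tR(CCU)J, which reads AGG codons, on the URA-marked 2-micron plasmid pRS426. AGG-QC carries on the same plasmid tR(UCU)B with its anticodon changed to CCU, so that the body of another arginine tRNA reads AGG. WT-URA is wild type with the URA plasmid and no added tRNA, and WT is wild type without a plasmid. The study set ACA-K against WT and both AGG strains against WT-URA. WT-URA over WT is the comparison of the controls. The plasmid strains were selected without uracil and the wild type is described as grown in rich medium, so plasmid, medium and library cannot be told apart there. WT and WT-URA each enter 2 comparisons, which are therefore not independent, and how many clones stand behind a strain is not given in the sources used here.

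There was 1 footprint library and 1 mRNA library per strain, so no value below has a replicate error, nothing was tested, and "higher" and "lower" compare single libraries. The libraries held 6011287 to 29706058 footprints. Intervals are exact 95% binomial intervals on shares and ratios of footprint counts, and they cover counting error only, since PCR reads without molecular identifiers are not independent molecules. URA3, the plasmid marker, was listed in 3 strains, with 60442 footprints in AGG-OE, 18950 in AGG-QC and 137431 in WT-URA, and it was not listed in ACA-K or WT. The listing separates strains with the plasmid from those without, and does not separate the strains within each set. tRNA levels and charging were not analysed here.

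Levels are given per codon of the gene, so that genes of different length can be set side by side, after each library was divided by its size factor (the median over the 4964 genes of its ratio to the geometric mean of the libraries). The cytosolic members were far above the typical gene and the mitochondrial members below it. In WT the cytosolic members ranked at percentiles 84.0 to 96.3 of all genes and the mitochondrial members at 9.95 to 35.1. In WT, the 22 cytosolic members had 8.10 to 46.5 scaled footprints per codon (median 21.6), and the 14 mitochondrial members had 0.221 to 0.801 (median 0.354). The median of all genes listed in WT was 1.36. Every cytosolic member lay above the median gene of its library in all 5 strains, and every mitochondrial member lay below it, so the compartments did not overlap in any strain.

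The order within each compartment was also wide. SES1 (YDR023W), which charges serine, was highest in WT, and its footprint density was 46.9 scaled footprints per codon in ACA-K, 31.6 in AGG-OE, 23.7 in AGG-QC, 25.9 in WT-URA and 46.5 in WT. CRS1 (YNL247W), for cysteine, was the lowest cytosolic member in WT, at 7.95 scaled footprints per codon in ACA-K, 5.91 in AGG-OE, 4.62 in AGG-QC, 4.48 in WT-URA and 8.10 in WT. Both genes had the larger values in the strains without a plasmid. In the mitochondrial set, MSW1 (YDR268W), for tryptophan, was highest in WT, with 0.745 scaled footprints per codon in ACA-K, 0.834 in AGG-OE, 0.995 in AGG-QC, 0.894 in WT-URA and 0.801 in WT. SLM5 (YCR024C), for asparagine, was lowest in WT, with 0.154 scaled footprints per codon in ACA-K, 0.364 in AGG-OE, 0.376 in AGG-QC, 0.411 in WT-URA and 0.221 in WT. SLM5 thus had its larger densities in the plasmid strains, opposite to SES1 and CRS1, and its densities rest on 106 (AGG-QC) to 225 (WT) footprints a library. The other 12 mitochondrial members, among them MSE1 (glutamate), MSK1 (lysine), MSD1 (aspartate), MSM1 (methionine), MSY1 (tyrosine), NAM2 (leucine), ISM1 (isoleucine) and AIM10 (proline), lay between these in WT. ISM1 was the lowest in all 3 plasmid strains, with 0.232 scaled footprints per codon in ACA-K, 0.236 in AGG-OE, 0.232 in AGG-QC, 0.268 in WT-URA and 0.240 in WT.

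**Figure D1:**
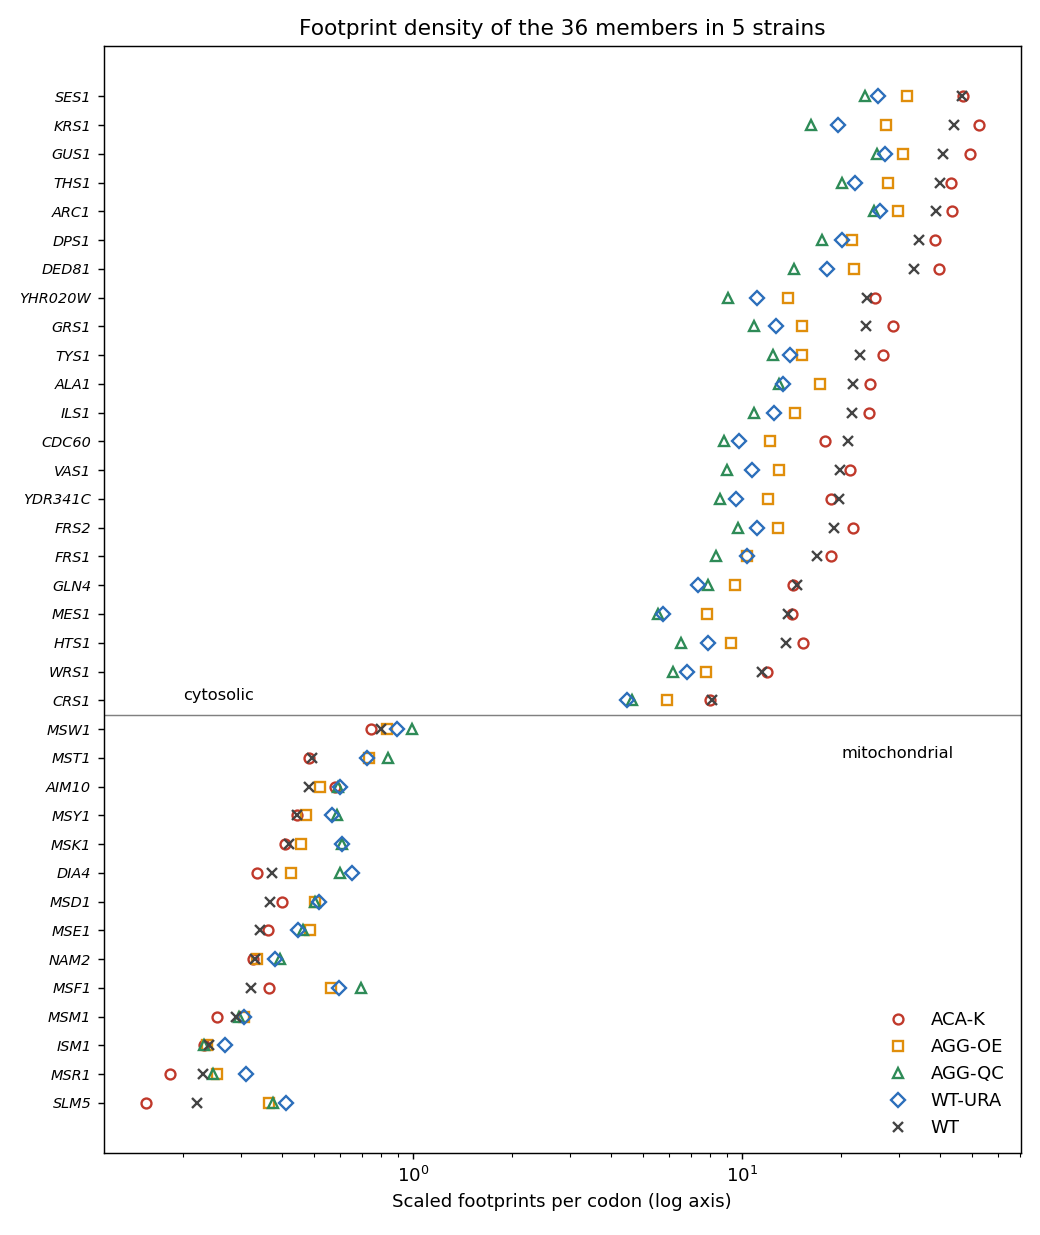
Scaled footprints per codon (log axis) of the 36 members, one row per gene ordered by WT within each compartment, with one mark per strain. The 22 cytosolic members lie between 4.48 and 52.3 and the 14 mitochondrial members between 0.154 and 0.995, and the plasmid strains sit left of ACA-K and WT for every cytosolic gene.

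As a share of all footprints, the cytosolic members took 2.66% in ACA-K, 1.99% in AGG-OE, 1.69% in AGG-QC, 1.77% in WT-URA and 2.51% in WT, and no interval was wider than 1.68% to 1.70% (AGG-QC). The mitochondrial members took 0.0198% in ACA-K, 0.0295% in AGG-OE, 0.0382% in AGG-QC, 0.0354% in WT-URA and 0.0207% in WT. The cytosolic share was thus higher in both strains without a plasmid than in the 3 with it, and the mitochondrial share lower. The mRNA signal divided in the same way, with a cytosolic share of 2.08% in ACA-K, 1.52% in AGG-OE, 1.251% in AGG-QC, 1.39% in WT-URA and 1.97% in WT.

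The compartments also differed in translation efficiency (TE), which is the scaled footprints of a gene divided by its scaled mRNA signal. The median TE of the cytosolic members was 0.145 in ACA-K, 0.154 in AGG-OE, 0.137 in AGG-QC, 0.144 in WT-URA and 0.153 in WT. That of the mitochondrial members was 0.0436 in ACA-K, 0.0407 in AGG-OE, 0.0443 in AGG-QC, 0.0435 in WT-URA and 0.0421 in WT, and that of all genes lay between 0.0658 and 0.0682. Every cytosolic member was above the median gene in all 5 strains. Every mitochondrial member was below it in AGG-OE, AGG-QC, WT-URA and WT, and 2 were above it in ACA-K. MST1, the mitochondrial threonine enzyme, was the higher of these at 0.0831, and AIM10 (proline) was just over the median gene at 0.0683. The highest cytosolic TE in each strain belonged to ALA1 (ACA-K and AGG-QC) or FRS2 (AGG-OE, WT-URA and WT), and the lowest in all 5 belonged to HTS1, the histidine enzyme, with 0.0996 in ACA-K, 0.0886 in AGG-OE, 0.0841 in AGG-QC, 0.0872 in WT-URA and 0.1002 in WT.

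**Figure D2:**
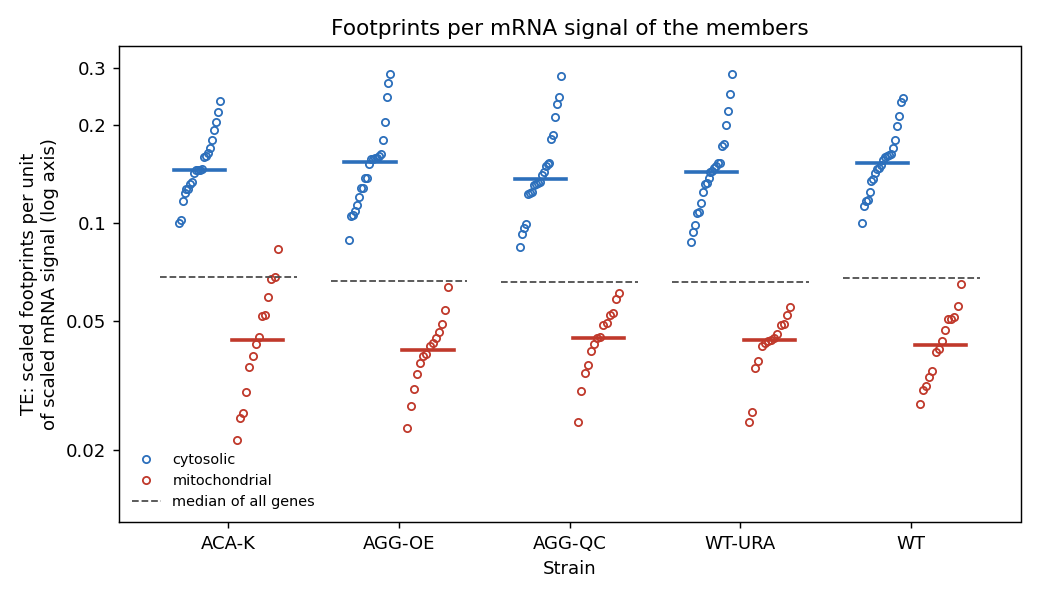
TE of each member (log axis) by strain, as scaled footprints per unit of scaled mRNA signal, with a bar at the median of each compartment and a dashed line at the median of all genes. Cytosolic medians lie between 0.137 and 0.154, above the dashed line, and mitochondrial medians between 0.0407 and 0.0443, below it.

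For each mitochondrial enzyme, a cytosolic gene charges the same amino acid, which gives 15 pairs with FRS1 and FRS2 both set against MSF1 (phenylalanine). The cytosolic gene had the higher footprint density in every pair and strain. The median ratio over the pairs was 88.8-fold in ACA-K, 37.8-fold in AGG-OE, 23.9-fold in AGG-QC, 30.4-fold in WT-URA and 81.1-fold in WT. The smallest ratio in each strain was that of WRS1 over MSW1 (tryptophan), at 16.0-fold in ACA-K, 9.29-fold in AGG-OE, 6.20-fold in AGG-QC, 7.58-fold in WT-URA and 14.3-fold in WT. DED81 over SLM5 (asparagine) gave the largest ratio in ACA-K, at 258-fold, and in WT, at 150.2-fold, while SES1 over DIA4 (serine) was largest in AGG-OE, at 74.3-fold, and GUS1 over MSE1 (glutamate) in AGG-QC, at 55.4-fold, and WT-URA, at 60.7-fold. The mRNA ratio was smaller, with a median of 24.6-fold in ACA-K, 10.4-fold in AGG-OE, 7.42-fold in AGG-QC, 8.48-fold in WT-URA and 22.2-fold in WT, and the TE ratio had a median of 4.02-fold in ACA-K, 4.02-fold in AGG-OE, 3.64-fold in AGG-QC, 3.69-fold in WT-URA and 4.16-fold in WT. The ratio of mRNA levels thus varied more between strains than the ratio of TE.

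Members whose products work together were compared within each strain. FRS2 and FRS1, the subunits of phenylalanyl-tRNA synthetase, had nearly equal footprint densities, with FRS2 over FRS1 at 1.16 in ACA-K, 1.248 in AGG-OE, 1.17 in AGG-QC, 1.07 in WT-URA and 1.13 in WT. The mRNA of FRS2 was lower, with a ratio of 0.658 in ACA-K, 0.599 in AGG-OE, 0.728 in AGG-QC, 0.495 in WT-URA and 0.633 in WT. The footprint ratio was therefore closer to 1 than the mRNA ratio in every strain, and TE was 1.61 to 2.17 times higher for FRS2. YDR341C, the arginine enzyme, is not part of that complex. It had 18.7 scaled footprints per codon in ACA-K, 11.98 in AGG-OE, 8.55 in AGG-QC, 9.55 in WT-URA and 19.7 in WT. FRS1 had 18.7, 10.3, 8.29, 10.3 and 16.9 in the same order. Near-equal densities are thus not particular to the subunits.

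GUS1, the glutamate enzyme bound by Arc1, was also near ARC1, with GUS1 over ARC1 at 1.13 in ACA-K, 1.04 in AGG-OE, 1.02 in AGG-QC, 1.03 in WT-URA and 1.05 in WT in footprint density. This was not particular to a bound enzyme. SES1, the serine enzyme, had 46.9 scaled footprints per codon in ACA-K, 31.6 in AGG-OE, 23.7 in AGG-QC, 25.9 in WT-URA and 46.5 in WT. ARC1 had 43.5, 29.7, 25.1, 26.2 and 38.8 in the same order, so SES1 was near it too, though less so in WT. MES1, the methionine enzyme in the same complex as GUS1, was not near ARC1, with MES1 over ARC1 at 0.325 in ACA-K, 0.262 in AGG-OE, 0.221 in AGG-QC, 0.219 in WT-URA and 0.356 in WT. The counting interval was 0.210 to 0.229 in WT-URA and 0.350 to 0.362 in WT, so the difference between these libraries is beyond counting error. In mRNA, MES1 over ARC1 was 0.295 in ACA-K, 0.297 in AGG-OE, 0.223 in AGG-QC, 0.292 in WT-URA and 0.325 in WT.

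ACA-K over WT asks what follows when most gene copies of a threonine tRNA are lost. No member was 1.5-fold or more apart between ACA-K and WT in mRNA, footprints or TE. In mRNA, 1.44% of the 5152 genes listed in both strains were at least 1.5-fold higher in ACA-K and 1.71% at least 1.5-fold lower, in footprints 2.21% and 2.37%, and in TE 3.18% and 2.72%. With shares this small, 0 of 36 members is near the background and says nothing about them in particular.

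Below that size, the cytosolic members leaned to one side. In mRNA, 20 of 22 were higher in ACA-K, beside 51.4% of all genes, with a median log2 ratio of 0.15 and a range of -0.022 (CDC60, leucine) to 0.34 (FRS2). In footprints, 18 of 22 were higher in ACA-K, beside 51.7% of all genes, with a median of 0.15 and a range of -0.23 (CDC60) to 0.27 (GUS1). The quartiles of all genes were -0.16 and 0.16 in footprints. The cytosolic medians lie inside that range. TE was higher in ACA-K for 7 of 22, beside 48% of all genes, and lower for 15, beside 52%, with a median of -0.027. With libraries scaled to their totals, which shifts every mRNA ratio by -0.085 and every footprint ratio by -0.041, 15 of 22 were higher in mRNA, 16 in footprints and 13 in TE, where the median was 0.017. The medians of all genes on that scaling are -0.078 in mRNA, -0.030 in footprints and 0.032 in TE. The cytosolic TE median thus stayed below that of all genes. Set against genes of like mRNA level, 17 of 22 were higher in mRNA, with a median of 0.086, and a pseudo-count of 1 footprint per codon brings the footprint median to 0.025.

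THS1 (YIL078W), which charges threonine tRNA in the cytosol and so serves the tRNA whose gene copies were deleted in ACA-K, had 43.0 scaled footprints per codon in ACA-K, 27.7 in AGG-OE, 20.04 in AGG-QC, 22.1 in WT-URA and 40.0 in WT. Its mRNA was 262 scaled units of signal per codon in ACA-K, 183 in AGG-OE, 139.9 in AGG-QC, 149 in WT-URA and 223 in WT. The 3 plasmid strains had the lower values in both. ACA-K was above WT in both, with a log2 ratio of 0.23 in mRNA, larger than that of 84.1% of genes, and of 0.10 in footprints (counting interval 0.086 to 0.12), larger than that of 65.8%. TE of THS1 was 0.164 in ACA-K, 0.152 in AGG-OE, 0.143 in AGG-QC, 0.148 in WT-URA and 0.180 in WT. WT was the highest, and ACA-K was -0.13 from it on the log2 scale, at a place where 31.4% of genes were lower.

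MST1 (YKL194C), which charges threonine tRNA in the mitochondrion, had 331 footprints in ACA-K, 257 in AGG-OE, 222 in AGG-QC, 255 in WT-URA and 472 in WT. After scaling this gave 0.484 footprints per codon in ACA-K, 0.733 in AGG-OE, 0.839 in AGG-QC, 0.725 in WT-URA and 0.493 in WT, and its mRNA was 5.83 scaled units per codon in ACA-K, 11.5 in AGG-OE, 13.8 in AGG-QC, 14.0 in WT-URA and 7.61 in WT. The mRNA of MST1 was lowest in ACA-K, at a log2 ratio of -0.39 to WT, below all but 5.88% of genes, and its footprints did not differ beyond counting (-0.028, interval -0.23 to 0.18). Its log2 ratio of TE was 0.36.

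The mitochondrial members leaned below WT in ACA-K in mRNA and footprints, by small medians. In mRNA 10 of 14 were lower, beside 48.6% of genes (median log2 ratio -0.095), and in footprints 10 of 14, beside 48.3% (-0.034). TE was higher for 8 of 14, beside 48% (0.058). With totals scaling 12 of 14 were lower in mRNA, where the median of all genes is -0.078. A pseudo-count of 1 footprint per codon turns the footprint median to 0.14 with 14 of 14 higher, where the median of all genes is 0.057. That added count is large beside the mitochondrial densities and pulls these ratios toward 1 common value, so the 14 of 14 says little about the members. SLM5 was the lowest in footprints at -0.52 (interval -0.86 to -0.19), from 112 footprints in ACA-K and 225 in WT before scaling. AIM10 was the highest at 0.26 (interval 0.081 to 0.43). MSR1, the mitochondrial arginine enzyme, was at -0.33 (interval -0.61 to -0.060) in footprints and at 0.034 in mRNA, where totals scaling turns the sign to -0.051. The intervals of these 3 genes exclude 0 in counting terms, but 1 library a strain gives no measure of how far replicates would differ.

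**Figure D3:**
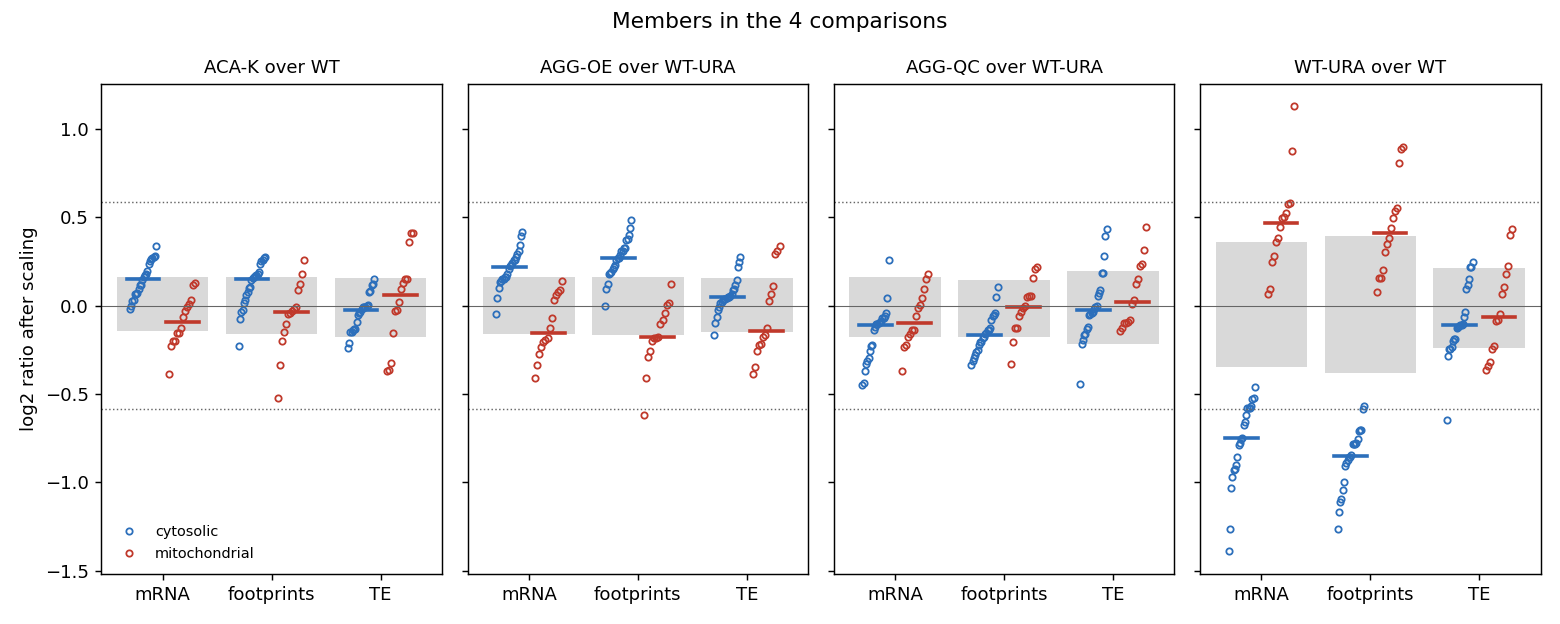
The log2 ratios of the members (vertical axis) in mRNA, footprints and TE, 1 panel per comparison, with a bar at the median of each compartment. Grey boxes span the quartiles of all genes and dotted lines mark 1.5-fold. Members lie inside the dotted lines in the first 3 panels except DIA4 at -0.62 in footprints of AGG-OE over WT-URA, and in WT-URA over WT the cytosolic medians are -0.75 and -0.85 against mitochondrial medians of 0.47 and 0.41 in mRNA and footprints.

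At a smaller threshold of 0.32 on the log2 scale the shares in ACA-K over WT were as follows: in mRNA, 1 of 36 members were higher by that much, beside 8.6% of genes, and 1 lower, beside 8.85%. In footprints, 0 of 36 members were higher by that much, beside 9.55% of genes, and 2 lower, beside 10.3%, and in TE, 3 of 36 members were higher by that much, beside 11.5% of genes, and 3 lower, beside 11.5%. No share of members was above that of all genes.

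AGG-OE over WT-URA asks what extra copies of an arginine tRNA gene do. All 22 cytosolic members had more scaled footprints in AGG-OE, beside 51% of the 5022 genes, and 21 had more mRNA, beside 50.6%. The median log2 ratio was 0.27 in footprints and 0.22 in mRNA, above the upper quartile of all genes (0.16 and 0.16). The ratios ran to 0.49 in footprints and 0.42 in mRNA, both for KRS1, the lysine enzyme. FRS1 was lowest in both, at -0.047 in mRNA and at 0.00026 in footprints. None was 1.5-fold apart, beside 3.52% of genes at least 1.5-fold higher in footprints and 2.23% in mRNA. TE was higher for 17 of 22, beside 50.8% of genes, with a median of 0.046, and this median is -0.027 when the first 100 codons are left out. Totals scaling shifts all genes by -0.11 in mRNA and -0.11 in footprints, after which 19 and 20 of 22 were higher in mRNA and footprints, and FRS1 and DPS1 (aspartate) were the 2 below 0 in footprints. The cytosolic medians are then 0.11 in mRNA and 0.16 in footprints, and set against genes of like mRNA level the mRNA median is 0.12.

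YDR341C, the arginine enzyme of the cytosol, charges the tRNA that is added in both AGG strains. It had 18.7 scaled footprints per codon in ACA-K, 11.98 in AGG-OE, 8.55 in AGG-QC, 9.55 in WT-URA and 19.7 in WT, and its mRNA was 141 scaled units of signal per codon in ACA-K, 87.2 in AGG-OE, 61.1 in AGG-QC, 66.3 in WT-URA and 126 in WT. In both measures AGG-OE stood highest among the plasmid strains and AGG-QC lowest. AGG-OE over WT-URA was 0.39 in mRNA, higher than 93.5% of genes, and 0.33 in footprints (interval 0.27 to 0.39), higher than 90.0%. Its TE was 0.132 in ACA-K, 0.137 in AGG-OE, 0.140 in AGG-QC, 0.144 in WT-URA and 0.156 in WT. WT was the highest of these, and AGG-OE lay -0.067 from WT-URA on the log2 scale. The footprint ratios of KRS1, MES1, CRS1, ALA1, GLN4 (glutamine) and THS1 were larger than that of YDR341C, at 0.49, 0.44, 0.40, 0.38, 0.37 and 0.33 in the same order, the last by less than the counting interval.

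The mitochondrial members leaned the other way in AGG-OE. In footprints 11 of 14 were lower, beside 49% of genes, with a median log2 ratio of -0.18, and in mRNA 9 of 14 were lower, beside 49.4%, with a median of -0.16. TE was lower for 8 of 14, beside 49.2%, at a median of -0.15. A pseudo-count of 1 footprint per codon, large beside these densities, turns the TE median to 0.073 with 9 of 14 higher and brings the footprint median to -0.029. The medians of all genes are then 0.016 and 0.011. Totals scaling puts the mitochondrial footprint median at -0.29, beside -0.11 for all genes. DIA4 (YHR011W), the mitochondrial serine enzyme, was the 1 member of the 36 past 1.5-fold, beside 3.39% of genes at least 1.5-fold lower. That count is near the share of all genes and says nothing about the members in particular, and with the pseudo-count it was 0. DIA4 had 222 footprints in ACA-K, 144 in AGG-OE, 153 in AGG-QC, 222 in WT-URA and 345 in WT, and 0.336 scaled footprints per codon in ACA-K, 0.425 in AGG-OE, 0.599 in AGG-QC, 0.654 in WT-URA and 0.374 in WT. AGG-OE lay below both other plasmid strains and nearer to ACA-K and WT, with a log2 ratio to WT-URA of -0.62 (interval -0.93 to -0.31), and its mRNA ratio was -0.24. MSR1 and MST1, which charge arginine and threonine in the mitochondrion, were at -0.29 (interval -0.64 to 0.061) and 0.014 (interval -0.24 to 0.27) in footprints, where totals scaling puts MST1 at -0.098. Neither was apart from 0 beyond counting.

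In AGG-OE over WT-URA, 2.45% of genes were at least 1.5-fold lower in mRNA, and 1.87% were that much higher and 2.49% lower in TE, with 0 members in each. At the threshold of 0.32, in mRNA, 3 of 36 members were higher by that much, beside 9.74% of genes, and 2 lower, beside 10.5%. In footprints, 7 of 36 members were higher by that much, beside 10.3% of genes, and 2 lower, beside 12.1%, and in TE, 1 of 36 members were higher by that much, beside 9.06% of genes, and 2 lower, beside 9.68%. The 7 in footprints are all cytosolic, and KRS1, MES1 and CRS1 lead them.

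AGG-QC over WT-URA asks the same of a tRNA with another body, and it shares the WT-URA libraries with the comparison above. The cytosolic members leaned below WT-URA here. In mRNA 20 of 22 were lower in AGG-QC, beside 51.9% of the 5070 genes, and in footprints 20 of 22, beside 51.3%. The median log2 ratio was -0.11 in mRNA and -0.17 in footprints, nearer to 0 than the lower quartile of all genes (-0.18 and -0.18). With totals scaling, which shifts footprint ratios by 0.083, 16 of 22 were lower in footprints and 20 in mRNA. The medians of all genes are then 0.077 and -0.041. In the bin of highest mRNA level (of 10 equal bins), 75.5% of genes were lower in footprints, and it held 8 cytosolic members. After the median of its own bin was subtracted from each member, 15 of 22 were lower in footprints, with a median of -0.054. In mRNA 20 of 22 were then lower, with a median of -0.17. TE was lower for 14 of 22, beside 51.8%, at a median of -0.025, and totals scaling turns this to 0.086 with 7 lower. The TE median of all genes is then 0.10, so the cytosolic median stayed below it. With the bin median subtracted, the cytosolic TE median was 0.12 with 3 lower.

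No member was 1.5-fold apart in AGG-QC, where 3.93% of genes were at least that much higher and 2.15% lower in mRNA, 2.62% and 2.66% in footprints, and 3.14% and 3.96% in TE. Among the cytosolic members the widest ratios of mRNA were those of MES1 (-0.45), CDC60 (-0.44) and YHR020W (-0.37, proline). Footprints of MES1 and CDC60 were nearer to WT-URA (-0.051, which totals scaling turns to 0.032, and -0.16), and their TE ratios were 0.40 and 0.28. GLN4 had the largest TE ratio of the cytosolic members at 0.43. FRS2 had the smallest at -0.45, with mRNA at 0.26 and footprints at -0.18. YDR341C stayed close to WT-URA, at -0.12 in mRNA and -0.16 in footprints (interval -0.23 to -0.092). THS1 had like values, -0.093 and -0.14 (interval -0.18 to -0.098).

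MSR1 (YHR091C) had 173 footprints in ACA-K, 124 in AGG-OE, 91 in AGG-QC, 152 in WT-URA and 305 in WT, which is 0.182 per codon after scaling in ACA-K, 0.254 in AGG-OE, 0.247 in AGG-QC, 0.311 in WT-URA and 0.229 in WT. Its mRNA was 8.47 scaled units per codon in ACA-K, 10.9 in AGG-OE, 10.1 in AGG-QC, 11.9 in WT-URA and 8.28 in WT. WT-URA was highest in footprints, and mRNA was higher in all 3 plasmid strains than in ACA-K and WT. AGG-QC over WT-URA was -0.33 in footprints, with an interval of -0.72 to 0.054 that holds 0. Over the 14 mitochondrial members, 8 were lower in footprints (median log2 ratio -0.0085), beside 51.3% of genes, and 9 in mRNA (-0.099), beside 51.9%. In TE 6 were lower (0.020), beside 51.8%. Totals scaling leaves 4 lower in footprints and moves the footprint median to 0.075, beside 0.077 for all genes.

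At the threshold of 0.32 in AGG-QC over WT-URA, in mRNA, 0 of 36 members were higher by that much, beside 12.3% of genes, and 5 lower, beside 10.3%. In footprints, 0 of 36 members were higher by that much, beside 9.09% of genes, and 2 lower, beside 12.2%, and in TE, 3 of 36 members were higher by that much, beside 13.2% of genes, and 1 lower, beside 16.1%. Of these counts, that of lower mRNA stood above the share of all genes.

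WT-URA over WT, which compares wild type with and without the URA plasmid, gave the widest spread of member ratios of the 4 comparisons. All 22 cytosolic members were lower in WT-URA in mRNA and in footprints, and all 14 mitochondrial members were higher in both. Of the 5049 genes, 49.1% were lower in mRNA and 49.4% in footprints. The cytosolic median log2 ratio was -0.75 in mRNA and -0.85 in footprints, and the mitochondrial median was 0.47 and 0.41. Past 1.5-fold lower were 15 cytosolic members in mRNA, beside 15% of genes, and 21 in footprints, beside 16.8%. Past 1.5-fold higher were 2 mitochondrial members in mRNA, beside 15%, and 3 in footprints, beside 17.3%. Totals scaling shifts all genes up by 0.30 in mRNA and 0.37 in footprints, and all 22 cytosolic members stayed lower in both. The 14 mitochondrial members were already above 0, so an upward shift could not turn their direction. The cytosolic medians are then -0.46 and -0.48, and the mitochondrial medians 0.77 and 0.78, beside 0.31 and 0.38 for all genes. On that scaling, 7 members were at least 1.5-fold lower in mRNA and 6 in footprints, and 10 were at least 1.5-fold higher in each. The counts past 1.5-fold thus depend on the scaling, and the share of all genes past it on that scaling was not taken.

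The members lowest against WT were MES1 in footprints and KRS1 in mRNA. KRS1 (YDR037W), for lysine, had 52.3 scaled footprints per codon in ACA-K, 27.3 in AGG-OE, 16.2 in AGG-QC, 19.5 in WT-URA and 43.9 in WT. Its mRNA was 359.6 scaled units per codon in ACA-K, 152 in AGG-OE, 106 in AGG-QC, 113 in WT-URA and 298 in WT. Both measures were lower in every plasmid strain than in ACA-K and WT, and WT-URA over WT was -1.39 (0.381-fold) in mRNA and -1.17 (0.444-fold) in footprints. YHR020W (YHR020W), for proline, had 25.3 scaled footprints per codon in ACA-K, 13.7 in AGG-OE, 9.02 in AGG-QC, 11.1 in WT-URA and 24.0 in WT. Its mRNA was 131 scaled units per codon in ACA-K, 56.3 in AGG-OE, 38.9 in AGG-QC, 50.3 in WT-URA and 121 in WT. It followed the same pattern, with WT-URA over WT at -1.27 in mRNA and -1.11 in footprints.

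MES1 (YGR264C) was the only member past 1.5-fold in TE, beside 4.54% of genes at least 1.5-fold lower and 6.71% higher. It had 14.1 scaled footprints per codon in ACA-K, 7.79 in AGG-OE, 5.54 in AGG-QC, 5.74 in WT-URA and 13.8 in WT, against an mRNA of 96.2 scaled units per codon in ACA-K, 68.8 in AGG-OE, 44.97 in AGG-QC, 61.3 in WT-URA and 94.1 in WT. TE was 0.147 in ACA-K, 0.113 in AGG-OE, 0.123 in AGG-QC, 0.0936 in WT-URA and 0.147 in WT, so all 3 plasmid strains were lower, and WT-URA over WT was -0.65 in TE, -0.62 in mRNA and -1.26 in footprints. With totals scaling the TE ratio was -0.57, short of 1.5-fold. Over the 22 cytosolic members TE was lower for 16, beside 52.6% of genes, with a median of -0.11, which turns to 0.075 with 19 of 22 higher when the first 100 codons are left out. Over the 14 mitochondrial members it was lower for 8, with a median of -0.065, which totals scaling turns to 0.011 and leaving out the first 100 codons to 0.030. The TE median of all genes on totals scaling is 0.056, so the mitochondrial median stayed below it.

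The other cytosolic members past 1.5-fold lay between these and the edge of that range. CDC60 (YPL160W), for leucine, had 17.8 scaled footprints per codon in ACA-K, 12.2 in AGG-OE, 8.80 in AGG-QC, 9.81 in WT-URA and 20.9 in WT. GLN4 (YOR168W), for glutamine, had 14.3 scaled footprints per codon in ACA-K, 9.48 in AGG-OE, 7.88 in AGG-QC, 7.33 in WT-URA and 14.7 in WT. GRS1 (YBR121C), for glycine, had 28.7 scaled footprints per codon in ACA-K, 15.2 in AGG-OE, 10.9 in AGG-QC, 12.7 in WT-URA and 23.8 in WT. All 3 had their higher values in ACA-K and WT, and WT-URA over WT was -1.09, -1.001 and -0.91 in the same order. VAS1 (YGR094W), for valine, had 21.3 scaled footprints per codon in ACA-K, 12.9 in AGG-OE, 9.02 in AGG-QC, 10.7 in WT-URA and 19.9 in WT. DED81 (YHR019C), for asparagine, had 39.6 scaled footprints per codon in ACA-K, 21.8 in AGG-OE, 14.3 in AGG-QC, 18.1 in WT-URA and 33.2 in WT. TYS1 (YGR185C), for tyrosine, had 26.8 scaled footprints per codon in ACA-K, 15.2 in AGG-OE, 12.4 in AGG-QC, 14.0 in WT-URA and 22.8 in WT. Their footprint ratios were -0.89, -0.88 and -0.71, again lower in each plasmid strain than in ACA-K and WT.

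ALA1 (YOR335C), for alanine, had 24.5 scaled footprints per codon in ACA-K, 17.3 in AGG-OE, 12.9 in AGG-QC, 13.3 in WT-URA and 21.7 in WT. ILS1 (YBL076C), for isoleucine, had 24.3 scaled footprints per codon in ACA-K, 14.5 in AGG-OE, 10.8 in AGG-QC, 12.5 in WT-URA and 21.5 in WT. DPS1 (YLL018C), for aspartate, had 38.4 scaled footprints per codon in ACA-K, 21.5 in AGG-OE, 17.5 in AGG-QC, 20.1 in WT-URA and 34.5 in WT. In these the footprint ratios were -0.71, -0.79 and -0.78, and ALA1 and ILS1 were lower in mRNA than in footprints (-0.92 and -0.90) while DPS1 was not (-0.53). HTS1 (YPR033C), for histidine, had 15.3 scaled footprints per codon in ACA-K, 9.26 in AGG-OE, 6.50 in AGG-QC, 7.89 in WT-URA and 13.6 in WT. WRS1 (YOL097C), for tryptophan, had 11.9 scaled footprints per codon in ACA-K, 7.75 in AGG-OE, 6.16 in AGG-QC, 6.78 in WT-URA and 11.4 in WT. These had ratios of -0.78 and -0.76. For FRS1 (YLR060W) the footprint densities were 18.7 in ACA-K, 10.3 in AGG-OE, 8.29 in AGG-QC, 10.3 in WT-URA and 16.9 in WT, and for FRS2 (YFL022C) they were 21.7 in ACA-K, 12.9 in AGG-OE, 9.72 in AGG-QC, 11.1 in WT-URA and 19.0 in WT. The subunits had footprint ratios of -0.71 and -0.78 and mRNA ratios of -0.68 and -1.03. SES1, CRS1, THS1 and YDR341C, whose densities are given above, had footprint ratios of -0.85, -0.86, -0.86 and -1.04.

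GUS1 and ARC1 were the least apart. GUS1 (YGL245W), for glutamate, had 49.2 scaled footprints per codon in ACA-K, 30.8 in AGG-OE, 25.7 in AGG-QC, 27.1 in WT-URA and 40.7 in WT. ARC1 (YGL105W), the cofactor, had 43.5 scaled footprints per codon in ACA-K, 29.7 in AGG-OE, 25.1 in AGG-QC, 26.2 in WT-URA and 38.8 in WT. Both were again higher in ACA-K and WT, with WT-URA over WT at -0.59 for GUS1 and -0.57 for ARC1 in footprints, and -0.52 and -0.46 in mRNA. ARC1 was the 1 cytosolic member short of 1.5-fold in all 3 measures, and GUS1 was just past it in footprints.

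In the mitochondrial set, MSF1 (YPR047W), for phenylalanine, had the largest mRNA ratio. Its mRNA was 5.43 scaled units per codon in ACA-K, 12.2 in AGG-OE, 11.9 in AGG-QC, 13.9 in WT-URA and 6.35 in WT. Its footprint density was 0.365 scaled footprints per codon in ACA-K, 0.562 in AGG-OE, 0.693 in AGG-QC, 0.594 in WT-URA and 0.321 in WT. The plasmid strains were the higher ones in both, and WT-URA over WT was 1.13 (2.19-fold) in mRNA and 0.89 (1.85-fold, log2 interval 0.63 to 1.14) in footprints. MST1 followed in mRNA at 0.87, with 0.56 (interval 0.33 to 0.78) in footprints. SLM5 had the largest footprint ratio at 0.90 (interval 0.59 to 1.20), with mRNA at 0.49, and DIA4 had 0.81 (interval 0.56 to 1.06) and 0.58. The remaining 10 had footprint ratios of 0.080 (MSM1, methionine) to 0.54 (MSK1, lysine), and MSR1 had 0.44.

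The ratio of WT-URA over WT also went with the mRNA level of a gene across the whole table. With genes split into 10 equal bins by mRNA per codon, the median log2 ratio of footprints was 0.34 in the lowest bin and -0.39 in the highest, and that of mRNA was 0.25 and -0.40. The highest bin held 9 cytosolic members and the next 11, and the mitochondrial members were in bins 1 to 4. After the median of its own bin was subtracted from each member, all 22 cytosolic members were still lower in both measures, with a median of -0.58 in footprints and -0.56 in mRNA. In the mitochondrial set 12 of 14 were still higher in footprints and 12 in mRNA, with medians of 0.25 and 0.39. The libraries differed in depth as well (8552107 footprints in WT-URA and 29706058 in WT), and its part in the result was not tested.

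**Figure D4:**
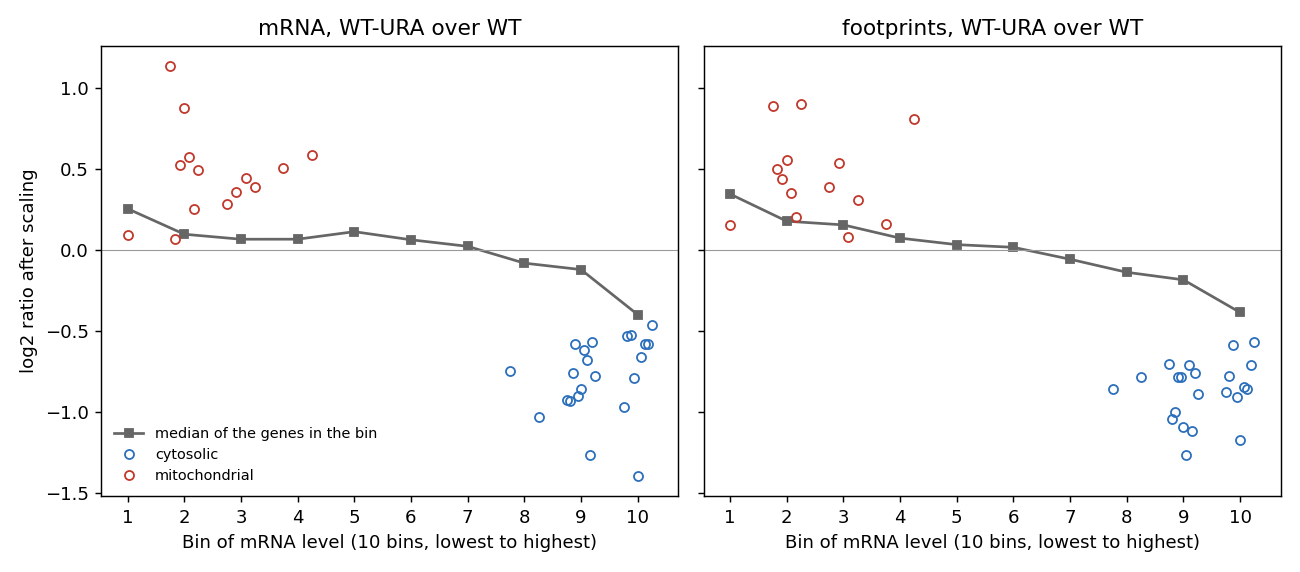
The log2 ratio of WT-URA over WT after scaling (vertical axis) against the bin of mRNA level (10 bins, lowest to highest) for mRNA (left) and footprints (right). Squares are the medians of all genes in the bin and circles are members. The cytosolic circles lie below the squares of their bin in both panels, with medians of -0.56 and -0.58 from them, and the mitochondrial circles lie mostly above, at 0.39 and 0.25.

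At the threshold of 0.32 in WT-URA over WT, in mRNA, 10 of 36 members were higher by that much, beside 27% of genes, and 22 lower, beside 26.5%. In footprints, 9 of 36 members were higher by that much, beside 29.1% of genes, and 22 lower, beside 28.1%, and in TE, 2 of 36 members were higher by that much, beside 17.3% of genes, and 3 lower, beside 17.7%. The 22 lower members are the cytosolic set in both measures.

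The footprints were also followed along the genes, counting codons from 1 at the start codon. Ribosome profiling gives more footprints near the start of most genes, and the libraries of the plasmid strains had more of this than the others. Footprints per codon in the first 100 codons over those past codon 100 had a median, over the cytosolic members, of 1.44 in ACA-K, 1.70 in AGG-OE, 1.59 in AGG-QC, 1.79 in WT-URA and 1.32 in WT. Over the mitochondrial members it was 1.64 in ACA-K, 2.90 in AGG-OE, 3.10 in AGG-QC, 3.55 in WT-URA and 1.65 in WT. Over the 3303 genes long enough, it was 1.51 in ACA-K, 2.27 in AGG-OE, 2.28 in AGG-QC, 2.68 in WT-URA and 1.47 in WT. The cytosolic median thus lay under that of all genes and the mitochondrial median over it in all 5 strains. Single members crossed: the cytosolic members under the median gene numbered 14 of 22 in ACA-K, 20 of 22 in AGG-OE, 20 of 22 in AGG-QC, 20 of 22 in WT-URA and 15 of 22 in WT, and the mitochondrial members over it 10 of 14 in ACA-K, 12 of 14 in AGG-OE, 11 of 14 in AGG-QC, 11 of 14 in WT-URA and 14 of 14 in WT. WT-URA over WT was higher for all 36 members and for 98.2% of genes, with a median log2 ratio of 0.45 (cytosolic), 0.94 (mitochondrial) and 0.85 (all genes).

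**Figure D5:**
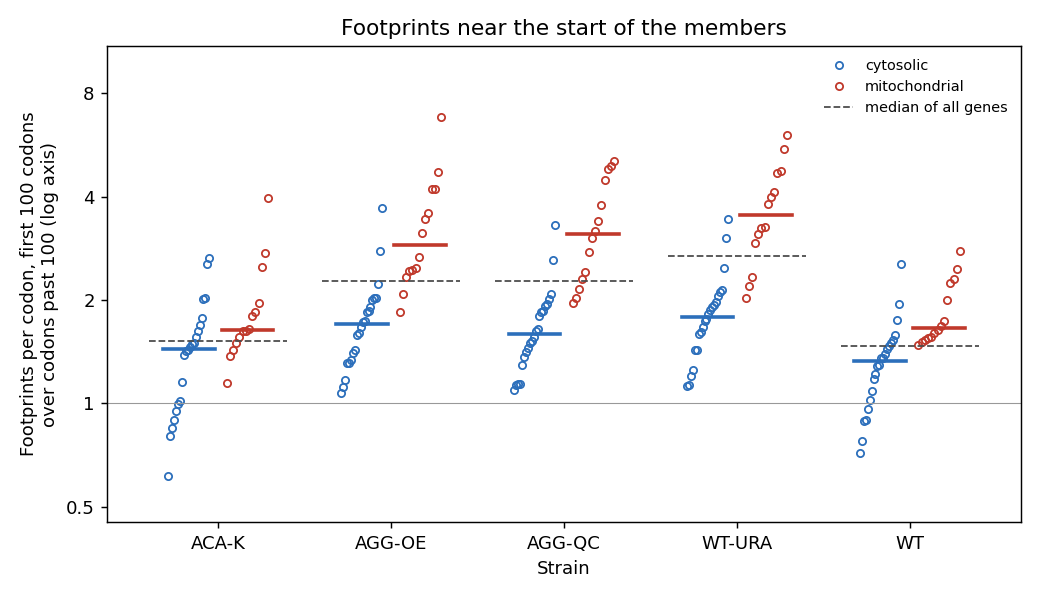
Footprints per codon in the first 100 codons over those past codon 100 (log axis) for each member by strain, with a bar at the median of each compartment and a dashed line at the median of all genes. Mitochondrial medians are 2.90, 3.10 and 3.55 in the plasmid strains AGG-OE, AGG-QC and WT-URA, beside 1.64 in ACA-K and 1.65 in WT.

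Among single members, the share of MSR1 footprints in the first 100 codons was 24.9% in ACA-K, 55.6% in AGG-OE, 38.5% in AGG-QC, 52.6% in WT-URA and 22.3% in WT. The interval was 44.4% to 60.8% in WT-URA and 17.7% to 27.4% in WT. These do not overlap. MST1 had 35.05% in ACA-K, 49.8% in AGG-OE, 57.7% in AGG-QC, 53.3% in WT-URA and 43.4% in WT, and DIA4 had 32.0% in ACA-K, 57.6% in AGG-OE, 58.2% in AGG-QC, 45.9% in WT-URA and 31.6% in WT. AGG-OE and AGG-QC were above WT-URA for DIA4, though the intervals overlap (49.1% to 65.8% in AGG-OE and 39.3% to 52.7% in WT-URA). With the first 100 codons left out, the cytosolic median of footprints in WT-URA over WT was -0.59 in place of -0.85. GRS1 stood highest among the cytosolic members in every strain, with early over late footprints per codon at 2.66 in ACA-K, 3.71 in AGG-OE, 3.30 in AGG-QC, 3.44 in WT-URA and 2.54 in WT. THS1 was near the cytosolic median, with 1.56 in ACA-K, 1.41 in AGG-OE, 1.36 in AGG-QC, 1.59 in WT-URA and 1.36 in WT.

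The codon that held most footprints past codon 20 was looked up in each cytosolic member, since these have enough footprints for it. It was the same codon in all 5 strains for 2 of the 22 members, in 4 strains for 3, in 3 for 8, in 2 for 7 and in 1 strain for 2. FRS2 had its highest codon at 119 in all 5 strains, and the share of its footprints there was 3.68% in ACA-K, 2.67% in AGG-OE, 3.36% in AGG-QC, 2.06% in WT-URA and 1.91% in WT. YHR020W had its own at codon 197, with 4.18% in ACA-K, 3.19% in AGG-OE, 2.70% in AGG-QC, 3.74% in WT-URA and 4.23% in WT. These were 19.8 to 31.4 times the mean codon past 100 for YHR020W and 10.7 to 20.5 times for FRS2. The height of a shared codon also differed between strains. GRS1 had its highest codon at 50 in 4 strains, with 11.3% in ACA-K, 3.57% in AGG-OE, 0.820% in AGG-QC, 2.39% in WT-URA and 3.69% in WT. That is 3184 footprints in ACA-K and 1212 in WT, and in AGG-QC the codon ranked number 14. ARC1 had codon 242 highest in 4 strains, with 6.83% in ACA-K, 3.05% in AGG-OE, 3.05% in AGG-QC, 3.87% in WT-URA and 2.32% in WT. THS1 had codon 100 highest in ACA-K and WT, with 3.69% (interval 3.52% to 3.86%) in ACA-K and 1.90% (1.80% to 2.02%) in WT. The share there was 2.50% in AGG-OE, 1.69% in AGG-QC and 2.19% in WT-URA. At the highest codon of each strain, the share was larger in ACA-K than in WT for every cytosolic member except YHR020W. A larger share in ACA-K was thus not particular to THS1, and genes outside the set were not compared. For all 22 members the codon highest in the largest number of strains was taken, the earlier in the gene where codons tied. For 7 members that number was 2 strains and for 2 members 1 strain. The share at this codon was larger in ACA-K than in WT for 13 and smaller for 9. These codons were picked from the same counts, so the tally is no result about ACA-K. Among the 9 were YDR341C (codon 187) and CDC60 (codon 1081), whose highest codons in ACA-K and WT lay elsewhere. These codons ranked number 10 and 44 in ACA-K and number 3 and 5 in WT. The identity of the codons was not used here. Of the codons of a cytosolic member, the median share with no footprint was 4.71% in ACA-K, 14.95% in AGG-OE, 23.2% in AGG-QC, 15.9% in WT-URA and 1.10% in WT.

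Genes that work beside the synthetases were taken as a fixed list of 14. These were a paralog of GRS1 (GRS2), the amidotransferase subunits that make mitochondrial glutaminyl-tRNA (PET112, HER2, GTF1), the formylase of the mitochondrial initiator (FMT1), the enzyme that adds the CCA end of tRNA (CCA1), enzymes that remove wrongly charged or stranded residues (DTD1, PTH1, PTH2), YNL040W, the elongation factors that carry charged tRNA (TUF1 in mitochondria, TEF1 and TEF2 in the cytosol) and the sensor GCN2. TEF1 and TEF2 are not in the tables used here, FMT1 is listed in AGG-QC alone, and the other 11 are listed in all 5 strains. Past 1.5-fold in ACA-K over WT, 1 of 11 was higher in mRNA, which was GRS2 at 0.64, beside 1.44% of all genes, and 0 were lower, beside 1.71%. In footprints and TE 0 of 11 were past it, beside 2.21% and 3.18% of genes higher and 2.37% and 2.72% lower. Footprints of GCN2 were at -0.27, its mRNA at 0.19 and its TE at -0.46.

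In AGG-OE over WT-URA, 1 of 11 was at least 1.5-fold higher in mRNA, beside 2.23% of genes, and 1 lower in footprints and in TE, beside 3.39% and 2.49%, in each case PTH1, which has only 34 footprints in AGG-OE and 69 in WT-URA. In AGG-QC over WT-URA, the same gene was the 1 past 1.5-fold higher in mRNA, beside 3.93% of genes, and lower in TE, beside 3.96%, and 0 were past it in footprints, beside 2.62% higher and 2.66% lower. In WT-URA over WT, 3 of 11 were at least 1.5-fold higher in mRNA (GRS2 at 0.98, HER2 at 0.67 and PET112 at 0.66), beside 15% of genes. In footprints 3 were (GRS2 at 0.65, HER2 at 0.68 and PTH1 at 0.85), beside 17.3%, and in TE 1 was (PTH1 at 0.73), beside 6.71%. None of the 11 was that much lower in any measure, beside 15% of genes in mRNA, 16.8% in footprints and 4.54% in TE. The scaled footprints per codon of GRS2 were 0.444 in ACA-K, 0.416 in AGG-OE, 0.517 in AGG-QC, 0.534 in WT-URA and 0.341 in WT, far under those of GRS1 in each strain. The paralogs share sequence, and reads that fit both would have been dropped as not unique, so the levels of GRS1 and GRS2 are uncertain to that extent. TUF1, the mitochondrial elongation factor, was at -0.40 in ACA-K over WT and at 0.13 in WT-URA over WT in footprints.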

How the data were processed

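Ribosome footprints and mRNA of 5 yeast strains were analysed, with 1 library of each kind per strain and each table was assigned to a strain by matching its name with the sample titles. The authors aligned footprints with Bowtie 1.0.0 (submitters' processing notes) to assembly R63, kept uniquely mapped reads, assigned each to its active codon, dropped genes with mRNA at too few positions, and deposited unscaled footprint counts for each gene and each of its codons, with the length in codons. The authors deposited the mRNA as 1 whole-number signal per gene whose unit the header does not name, so it was not treated as a count. Columns of gene names were matched to symbols in the RefSeq table of assembly R64 (5269 of 5373 matched), used for names only.

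Each library was divided by its median-of-ratios size factor over the 4964 genes listed in all strains. TE is scaled footprints over scaled mRNA. Ratios were taken over the genes listed in both strains with footprints and mRNA above 0. Shares of all genes are given beside counts of members. Footprint sums range from 6011287 to 29706058 per library, and the precision of a value follows from its count. All steps ran in Python (version 3.11.15) with pandas 2.3.3, scipy 1.17.1 and numpy 2.4.6, the figures with matplotlib 3.10.9, and the functions were tested on simulated data.

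The members and the list of partners were chosen with earlier results of these data known. All 36 members are counted. Values in every library are given for the threonine and arginine enzymes, for every member past 1.5-fold in any measure and comparison with at least 100 footprints in both strains, for the highest and lowest in WT of each compartment, and for ARC1, MES1 and GUS1. Other members were named as the ends of a range or beside these, after their values were seen. Alternatives were totals scaling, a smaller threshold (0.32 on the log2 scale), a minimum of 100 footprints, removal of codons 1 to 100 (of the leading 25% where a gene has no more than 100 codons), a pseudo-count of 1 footprint per codon and of 30 units of mRNA, and, chosen after seeing the data, the subtraction of the median of genes of like mRNA level. Sequences and coordinates were not used here.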

Additional observations from a re-analysis of the deposited data

How the results depend on the processing

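No paired analysis was possible because each strain has 1 library of each kind and the labels give no replicate numbers, and for the same reason no library could be left out. Of 180 alternative values, 140 stayed near the reported value, which for a median means within the order-statistic interval over the members (spread among genes, not replicate error) and says nothing of its sign. For a count of members it means that the sum of higher and lower members stayed within 1.5-fold, whatever their direction. In WT-URA over WT, totals scaling gave 10 higher and 7 lower in mRNA, and 10 higher and 6 lower in footprints, both counted as near. The sign turned in 15 of 112 alternative medians, 10 of them within that interval, and each turned value is given here. With totals scaling, the cytosolic medians of TE turned to 0.017 in ACA-K over WT and 0.086 in AGG-QC over WT-URA, the mitochondrial ones to 0.011 for TE in WT-URA over WT and 0.075 for footprints in AGG-QC over WT-URA, and the last turned as well, to 0.014, at a minimum of 100 footprints. Totals scaling shifts every gene of a comparison alike. The medians of all genes are then 0.032, 0.10, 0.056 and 0.077 in the same order, each above the turned median. With totals scaling, the cytosolic medians were 0.11 for mRNA and 0.16 for footprints in AGG-OE over WT-URA, and -0.46 and -0.48 in WT-URA over WT, and the mitochondrial medians were -0.29 for footprints in AGG-OE over WT-URA and 0.77 for mRNA in WT-URA over WT, where 0 members were past 1.5-fold in TE. With the first 100 codons left out, the cytosolic median of TE in AGG-OE over WT-URA reversed to -0.027, 1 member was past 1.5-fold there, and in WT-URA over WT the TE medians turned to 0.075 (cytosolic, 19 of 22 higher) and 0.030 (mitochondrial), and the cytosolic footprint median was -0.59. A pseudo-count of 1 footprint per codon, large beside the mitochondrial densities, gave cytosolic medians of TE of -0.15 in ACA-K over WT, -0.16 in AGG-QC over WT-URA and -0.57 in WT-URA over WT, cytosolic medians of footprints of 0.025, -0.32 and -1.31 in the same order, and a mitochondrial one of 0.14 in ACA-K over WT, which turned sign, with 10 members past 1.5-fold in TE of WT-URA over WT and 0 in footprints of AGG-OE over WT-URA. It also turned mitochondrial medians to 0.073 for TE in AGG-OE over WT-URA, 0.070 for TE in WT-URA over WT and 0.098 for footprints in AGG-QC over WT-URA. With genes of like mRNA level subtracted, an alternative chosen after seeing the data, the cytosolic medians of TE were 0.030 in ACA-K over WT (turned), 0.11 in AGG-OE over WT-URA and 0.12 in AGG-QC over WT-URA (turned, as was the mitochondrial one, to -0.087), those of footprints -0.054 in AGG-QC over WT-URA and -0.58 in WT-URA over WT, and those of mRNA 0.12 in AGG-OE over WT-URA and -0.56 in WT-URA over WT, with 0 members past 1.5-fold in TE and 14 in footprints of WT-URA over WT. At a threshold of 0.32 on the log2 scale, the members past it in mRNA, footprints and TE were 2, 2 and 6 in ACA-K over WT, 5, 9 and 3 in AGG-OE over WT-URA, and 5, 2 and 4 in AGG-QC over WT-URA. In WT-URA over WT they were 32 in mRNA and 5 in TE. Footprints at threonine and arginine residues, planned with an alternative over all codons, were not run, since sequences were not used here. Depth limits the mitochondrial members most: MSR1 and SLM5 rest on 91 and 106 footprints in AGG-QC.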

Other observations

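AGG-QC can also be set against AGG-OE, a comparison added to those of the study. AGG-OE carries the native arginine tRNA gene on the same plasmid. All 22 cytosolic members had fewer scaled footprints in AGG-QC, beside 50.8% of the 5057 genes, and 21 had less mRNA, beside 49.4%. The median log2 ratio was -0.42 in footprints and -0.38 in mRNA. KRS1 was lowest in footprints at -0.75. With YHR020W and DED81, for proline and asparagine, at -0.61 and -0.61, it made 3 of 36 members past 1.5-fold lower, beside 8.25% of genes. In mRNA, CDC60 at -0.72 and MES1 at -0.61 were the 2 of 36 past it, beside 6.74%. Both counts are near the share of all genes and say nothing about the members in particular. FRS2 was the 1 cytosolic member with more mRNA, at 0.031.

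The mitochondrial members did not follow. In footprints 10 of 14 were higher in AGG-QC, beside 49.2% of genes, with a median of 0.19. The range was -0.072 (MSE1, glutamate) to 0.49 (DIA4, interval 0.16 to 0.83). In mRNA 7 of 14 were higher, beside 50.6% of genes, with a median of 0.0012. YDR341C was at -0.49 (interval -0.55 to -0.42) and MSR1 at -0.039 (interval -0.45 to 0.36) in footprints, where totals scaling turns MSR1 to 0.16. With totals scaling, which shifts the footprint ratio of every gene by 0.20, all 22 cytosolic members stayed lower, at a median of -0.22. All 14 mitochondrial members were then higher, at 0.38. The share of all genes higher on that scaling was not taken, so these counts have no background beside them. These are again single libraries, so replicate error is unknown.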
